A study of Mus musculus with 8 samples.

Results

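The genes described here are 40 mouse genes of glutathione, thioredoxin and superoxide defence, taken by symbol from a list of antioxidant enzymes and their regulators. Of these, 35 were represented by a probe set annotated with their symbol alone, out of 22180 genes measured in that way. The brightest such probe set, by the mean over all 8 arrays, stood for each gene. Prdx1 was represented only by probe sets that carry several symbols, and Prdx5, Prdx6, Ucp2 and G6pdx had no probe set under their symbol in the annotation used, so these 5 are not analysed here. Total RNA came from AML12, a mouse hepatocyte line, in 2 groups of 4 separate cultures, 1 array per culture. The wild-type group kept Vwa8 intact and the knockout group had lost it with CRISPR/Cas9. All cultures were differentiated, per the design text, and both groups grew in medium with serum, insulin, transferrin, selenium at 5 ng/ml and dexamethasone, a synthetic glucocorticoid, at 40 ng/ml. The labels do not say how many knockout clones were grown, and clonal differences cannot be told apart from those of the deletion itself. P-values measure the spread between these cultures.

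Superoxide leaking from the respiratory chain and from oxidases is turned into hydrogen peroxide by superoxide dismutases. Glutathione peroxidases and peroxiredoxins then reduce the peroxide, the former with glutathione and most of the latter with thioredoxin. Glutathione reductase and thioredoxin reductases restore both carriers with NADPH, and glutaredoxins and methionine sulfoxide reductases repair oxidised proteins. Mitochondria hold their own versions of several of these enzymes. NRF2, encoded by Nfe2l2, activates many of the cytosolic genes from antioxidant response elements, and KEAP1 keeps it low by handing it to the proteasome. The liver is a main site of glutathione synthesis in the body.

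Because Gclm, Txnrd1 and other members are known NRF2 targets, the 250 bases upstream of each listed start were searched on both strands for TGACNNNGC, the core of the antioxidant response element. RefSeq promoter entries for assembly GRCm38.p6 were matched to 35 of the 40 genes, and the core was found in 7 of them (20%), against 11.5% of all 27025 genes with an entry. Among the 31 measured members with an entry it was 4, or 12.9%, near the share over all genes. No entry was found for Gclc, Gsr, Msra, Prdx6 and Sod3, so these were not searched. The 7 genes with the core include Prdx1, Ucp2 and G6pdx, which are not analysed here. The windows of the other 4, all measured, are printed 5′ to 3′ on the strand of the gene, with the match in capitals. Gclm and Txnrd1 are shown because they changed in opposite directions, and Sod1 and Nfe2l2 complete the set. Txnrd1 has 3 listed starts, and this window belongs to the only one with a match. The Nfe2l2 match reads TGACNNNGC on the printed strand, and the other 3 carry it on the opposite strand.
Gclm, chr3:122245307-122245556, plus strand: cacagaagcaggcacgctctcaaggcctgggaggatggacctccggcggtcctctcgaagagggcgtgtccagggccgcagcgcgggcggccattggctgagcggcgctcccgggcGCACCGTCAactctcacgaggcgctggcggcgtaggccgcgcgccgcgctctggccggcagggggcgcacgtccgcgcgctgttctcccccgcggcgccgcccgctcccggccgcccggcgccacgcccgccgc
Txnrd1, chr10:82858956-82859205, plus strand: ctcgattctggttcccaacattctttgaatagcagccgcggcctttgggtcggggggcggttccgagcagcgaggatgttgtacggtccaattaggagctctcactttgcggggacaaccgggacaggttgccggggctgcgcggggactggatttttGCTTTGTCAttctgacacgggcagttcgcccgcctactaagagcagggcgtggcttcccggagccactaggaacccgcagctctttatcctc
Sod1, chr16:90220512-90220761, plus strand: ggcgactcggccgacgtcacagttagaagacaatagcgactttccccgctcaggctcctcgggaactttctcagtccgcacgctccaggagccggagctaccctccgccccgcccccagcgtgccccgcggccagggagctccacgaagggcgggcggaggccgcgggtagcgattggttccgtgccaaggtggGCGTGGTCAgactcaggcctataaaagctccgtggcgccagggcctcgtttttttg
Nfe2l2, chr2:75704664-75704913, minus strand: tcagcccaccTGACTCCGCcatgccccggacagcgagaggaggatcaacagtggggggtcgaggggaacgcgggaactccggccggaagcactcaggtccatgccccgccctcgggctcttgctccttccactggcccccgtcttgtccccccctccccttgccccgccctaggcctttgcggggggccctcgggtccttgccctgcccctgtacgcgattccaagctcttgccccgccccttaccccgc
The first base of the match lay 134 bases upstream of the start in Gclm, 92 in Txnrd1, 56 in Sod1 and 240 in Nfe2l2. A match describes the letters of the window and is not evidence of binding.

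The arrays followed their labels. Vwa8, the deleted gene, read 8.91 to 9.01 on the wild-type arrays and 5.07 to 5.33 on the knockout arrays (exact permutation test, two-sided, p = 0.0286, the smallest that 4 against 4 arrays allow). All 8 measured hepatocyte markers, among them Alb and Hnf4a, stood above the median gene in both groups and were higher in the knockout, with summed log2 levels of 82.1 to 82.8 in wild type and 87.9 to 88.9 in knockout. All 4 measured proliferation markers, such as Mki67, were lower, with summed levels of 30.04 to 30.47 and 21.1 to 22.4. The part of either shift in the changes below was not tested. All 5 stellate or fibroblast markers and all 5 endothelial markers lay below the median gene. The same was true of 3 of 5 macrophage or leukocyte markers (summed levels 23.7 to 24.5 and 23.7 to 24.4). Of that list Cd14 was lower in the knockout, and the other 4 did not pass. Their log2 fold changes were 0.23 for Adgre1, 0.21 for Clec4f, 0.12 for Cd68 and -0.10 for Ptprc. Of the 5 cholangiocyte markers, Krt7 and Cftr were lower and 1 lay below the median gene (summed levels 32.2 to 33.0 and 30.8 to 31.5). Sox9, Krt19 and Epcam did not pass, with log2 fold changes of 0.11, -0.18 and -0.04. In such bulk RNA of a single line, fewer cells with a transcript and less of it per cell cannot be told apart.

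The antioxidant genes changed in both directions. Of the 35 measured genes, 8 rose and 5 fell in the knockout, and 22 did not pass the test (limma, adjusted p under 0.05 over all genes). That is 37.1% of the members, where 20.9% of all genes passed, 10.4% higher and 10.4% lower. Bright genes passed more often: of the 11090 genes brighter than the median gene 37% passed, and of the 31 members brighter than it 41.9%. Brightness here is the mean over both groups. Gpx3, which rose, is in that set only through its knockout arrays, with means of 4.46 in wild type and 5.20 in knockout. Refitted without the dimmest 50% of probe sets, limma called 45.1% of 12085 genes and 15 of the 31 members that remained. The members' share was therefore near that of bright genes in general. The changes were moderate: the largest was 1.67-fold, and no member reached 2-fold. Such a size was also rare over all genes, where 450 of 22180 reached it and passed the test. The median log2 fold change over the members was -0.011, against -0.003 over all genes, and the median size regardless of direction was 0.16 against 0.14. The 4 arrays of one genotype lay wholly above those of the other for 14 members, the 13 that passed and Sod1, while the groups did not overlap for 26.1% of all genes. In level, 31 of the 35 exceeded the median gene, which read 4.57 on the log2 scale. The dim exceptions were Gpx2, Gpx7, Gpx8 and Nqo1.

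**Figure D1:**
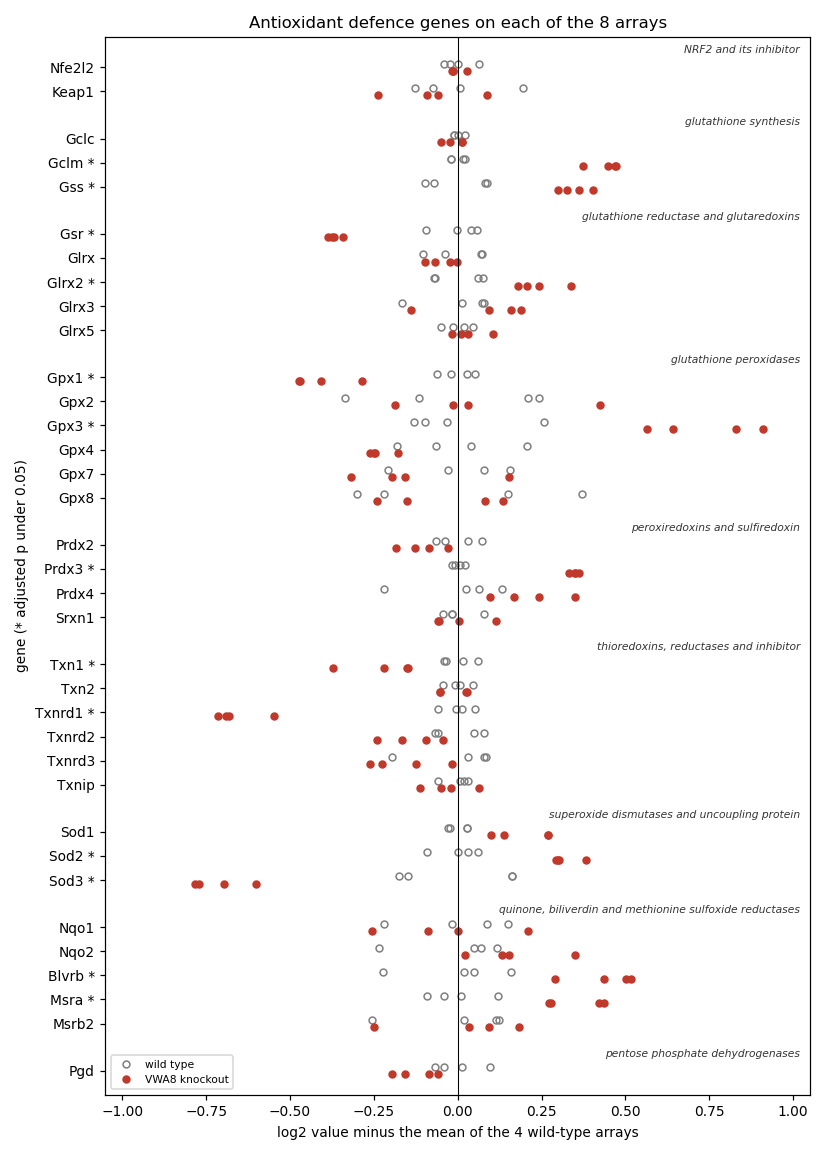
Values of the 35 measured genes on each array, as the log2 value minus the mean of the 4 wild-type arrays (x axis), with genes grouped by role (y axis). Open grey circles are wild-type cultures and red circles are VWA8 knockout cultures, and an asterisk marks an adjusted p under 0.05. Txnrd1, Sod3, Gpx1 and Gsr lie wholly to the left in the knockout, and Gpx3, Gclm, Prdx3 and Sod2 wholly to the right.

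The master regulator and its inhibitor did not pass the test. Nfe2l2 read 10.11, 10.13, 10.21 and 10.15 in wild type and 10.13, 10.13, 10.13 and 10.18 in knockout. The groups overlapped, and the log2 fold change of -0.005 had a 95% confidence interval from -0.12 to 0.11 (adjusted p = 0.966). Its neighbours on chromosome 2 were higher by 0.16, and subtracting them put Nfe2l2 at -0.17, just short of the threshold (adjusted p = 0.0505; 0.0505 to 0.999 over its alternatives). Keap1 read 6.88, 6.61, 6.69 and 6.56 in wild type and 6.59, 6.77, 6.62 and 6.44 in knockout, again with overlap (log2 fold change -0.08 ± 0.094, SE; adjusted p = 0.661). Keap1 has a second, dimmer probe set, and the mean of both gave 0.02. Nqo1, a quinone reductase widely used as a readout of NRF2, was dim in both groups. Its values were 3.63, 3.69, 3.32 and 3.52 in wild type and 3.54, 3.75, 3.28 and 3.45 in knockout, and the interval of its change ran from -0.29 to 0.23.

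Of the 3 genes of glutathione synthesis, those of the modifier subunit and of the last step rose. Glutamate-cysteine ligase, the rate-limiting enzyme, has a catalytic subunit, Gclc, and a modifier subunit, Gclm, which raises its activity. Gclc, the brightest of the measured members, read 11.72, 11.69, 11.69 and 11.70 in wild type and 11.72, 11.65, 11.68 and 11.71 in knockout (adjusted p = 0.913, interval of the log2 fold change from -0.12 to 0.10). Gclm (probe set 17402283, chromosome 3) read 10.64, 10.67, 10.64 and 10.68 in wild type and 11.12, 11.10, 11.13 and 11.03 in knockout. Every knockout array lay above every wild-type array, and the log2 fold change was 0.44 ± 0.052, or 1.36-fold (adjusted p = 0.000385). Genes around Gclm were also higher, and subtracting the median change of its neighbours on the chromosome left 0.18 (adjusted p = 0.0442). Gss, glutathione synthetase (probe set 17393288, chromosome 2), read 7.36, 7.33, 7.52 and 7.51 in wild type and 7.76, 7.83, 7.73 and 7.79 in knockout. It rose by 0.35 ± 0.065 (adjusted p = 0.00496), and subtracting its neighbours left 0.19 and ended the call (adjusted p = 0.0691).

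The gene of glutathione reductase fell. Gsr, the enzyme that regenerates reduced glutathione in cytosol and mitochondria (probe set 17500478, chromosome 8), read 9.85, 9.94, 9.98 and 10.00 in wild type and 9.60, 9.57, 9.56 and 9.57 in knockout. The groups were apart, with a log2 fold change of -0.37 ± 0.056, or 1.29-fold lower (adjusted p = 0.00157), and -0.24 after subtracting neighbouring genes (adjusted p = 0.0169). Of the 4 glutaredoxins, small enzymes that use glutathione to reduce protein disulfides, 1 rose and the others did not pass. Glrx2, found in mitochondria, read 5.81, 5.94, 5.81 and 5.95 in wild type and 6.06, 6.21, 6.12 and 6.08 in knockout. All knockout arrays were above all wild-type arrays (log2 fold change 0.24 ± 0.064, adjusted p = 0.0275), but 5 of 17 alternatives ended the call. Leaving out wild-type replicate 1 gave an adjusted p of 0.0714, wild-type replicate 3 gave 0.0722, knockout replicate 2 gave 0.0771 and knockout replicate 3 gave 0.0618. The cytosolic Glrx stood at -0.05 ± 0.062, Glrx3 at 0.08 ± 0.091, and Glrx5, which serves iron-sulfur cluster assembly in mitochondria, at 0.03 ± 0.055.

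Glutathione peroxidases split by gene. Gpx1, the abundant cytosolic and mitochondrial form and a selenoprotein (probe set 17521681, chromosome 9), read 9.69, 9.58, 9.67 and 9.62 in wild type and 9.23, 9.17, 9.35 and 9.17 in knockout. The knockout arrays were all lower (log2 fold change -0.41 ± 0.063, 1.33-fold, adjusted p = 0.00174). Gpx3, the secreted plasma form, read 4.33, 4.36, 4.43 and 4.72 in wild type and 5.03, 5.37, 5.29 and 5.10 in knockout. It rose 1.67-fold from near the median gene (log2 fold change 0.74 ± 0.110, adjusted p = 0.00141). Gpx4, which reduces lipid hydroperoxides in membranes and protects cells from ferroptosis, read 6.74, 6.52, 6.64 and 6.91 in wild type and 6.45, 6.44, 6.52 and 6.45 in knockout. The groups overlapped slightly, and the change of -0.23 ± 0.084 missed the threshold (adjusted p = 0.0888). It passed without wild-type replicate 2 (adjusted p = 0.0361), and it stood at -0.02 after subtracting neighbouring genes on chromosome 10 (adjusted p = 0.880). Over its alternatives the adjusted p of Gpx4 ran from 0.0337 to 0.880. The dim Gpx2, Gpx7 and Gpx8 ranged from -0.13 to 0.06 and none passed.

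Among peroxiredoxins the mitochondrial form rose. Prdx3, the main peroxide scavenger of the mitochondrial matrix (probe set 17366141, chromosome 19), read 9.88, 9.84, 9.85 and 9.86 in wild type and 10.21, 10.21, 10.22 and 10.19 in knockout. The groups were far apart for their spread, with SDs of 0.017 and 0.012 around means of 9.86 and 10.21. The log2 fold change was 0.35 ± 0.048, or 1.27-fold (adjusted p = 0.000961), and 0.33 with neighbouring genes subtracted. Prdx4, the peroxiredoxin of the endoplasmic reticulum, read 6.002, 5.93, 5.65 and 5.89 in wild type and 6.22, 6.04, 5.96 and 6.11 in knockout. Those groups overlapped, and the change of 0.21 ± 0.091 did not pass (adjusted p = 0.146). Prdx2, a cytosolic form, stood at -0.11 ± 0.061 (adjusted p = 0.285). Subtracting neighbouring genes put it at -0.21 and past the threshold (adjusted p = 0.0381; 0.0381 to 0.479 over its alternatives). Srxn1, sulfiredoxin, which restores over-oxidised peroxiredoxins and is an NRF2 target, stood at 0.001 ± 0.062 with values between 6.32 and 6.49 on all arrays.

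The cytosolic thioredoxin pair was lower. Txnrd1, the cytosolic thioredoxin reductase and a selenoprotein (probe set 17235915, chromosome 10), read 9.59, 9.54, 9.61 and 9.64 in wild type and 8.90, 8.88, 9.05 and 8.91 in knockout. Its adjusted p was the smallest of the members (8.7e-05). The fall was 0.66 ± 0.060 on the log2 scale, or 1.58-fold, and -0.45 remained after subtracting neighbouring genes, which were lower too. Txn1, its substrate thioredoxin, read 7.84, 7.90, 7.94 and 7.84 in wild type and 7.66, 7.73, 7.73 and 7.51 in knockout. The groups were apart but the call was marginal (log2 fold change -0.22 ± 0.067, adjusted p = 0.0468), and it was lost in 10 of 17 alternatives. Leaving out any single array raised the adjusted p of Txn1 above 0.05 (0.0567 to 0.111).

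Their mitochondrial counterparts did not pass. Txn2 read 7.88, 7.80, 7.83 and 7.85 in wild type and 7.87, 7.79, 7.86 and 7.79 in knockout, a change of -0.01 with an interval from -0.14 to 0.11. Txnrd2 read 5.74, 5.63, 5.78 and 5.64 in wild type and 5.65, 5.60, 5.46 and 5.53 in knockout (log2 fold change -0.14 ± 0.067, adjusted p = 0.209). Both genes overlapped between the groups. Txnrd3, best known from testis, stood at -0.16 ± 0.086 (adjusted p = 0.263). Txnip, the thioredoxin-binding protein that also restrains glucose uptake, stood at -0.03 ± 0.059 with levels of 10.39 and 10.36. Its neighbours on chromosome 3 were higher, and subtracting them gave -0.23 (adjusted p = 0.0247; 0.0247 to 0.989 over its alternatives).

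Of the 3 superoxide dismutases, 1 rose, 1 fell and 1 narrowly missed the threshold on the higher side. Sod2, the manganese enzyme of the mitochondrial matrix (probe set 17333347, chromosome 17), read 9.28, 9.41, 9.38 and 9.44 in wild type and 9.67, 9.76, 9.68 and 9.67 in knockout. All knockout arrays were above the wild-type arrays (log2 fold change 0.32 ± 0.058, 1.25-fold, adjusted p = 0.00401). Sod1, the copper-zinc enzyme of the cytosol, read 10.14, 10.09, 10.14 and 10.08 in wild type and 10.38, 10.25, 10.38 and 10.21 in knockout. Although the groups did not overlap, its change of 0.19 ± 0.062 just missed the threshold (adjusted p = 0.0556). It passed in 7 of 17 alternatives, such as without knockout replicate 4 (adjusted p = 0.0433) and with neighbouring genes subtracted (0.29), and its adjusted p ran from 0.00237 to 0.139. Sod3, the secreted extracellular enzyme (probe set 17437385, chromosome 5), read 5.31, 5.63, 5.62 and 5.29 in wild type and 4.77, 4.69, 4.68 and 4.86 in knockout. This was a clear separation downwards, with a log2 fold change of -0.71 ± 0.097, or 1.64-fold (adjusted p = 0.000853).

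Of the remaining reductases, 2 rose. Msra, which repairs oxidised methionine in cytosol and mitochondria, read 6.65, 6.60, 6.70 and 6.81 in wild type and 7.12, 7.11, 6.96 and 6.97 in knockout (log2 fold change 0.35 ± 0.071, adjusted p = 0.00716). Blvrb, a cytosolic flavin and biliverdin reductase, read 5.98, 5.74, 6.01 and 6.12 in wild type and 6.46, 6.48, 6.40 and 6.25 in knockout. It was higher on every knockout array (log2 fold change 0.44 ± 0.092, adjusted p = 0.00917). The mitochondrial Msrb2, which acts on the other stereoisomer of methionine sulfoxide, stood at 0.01 ± 0.116, and Nqo2, a quinone reductase, at 0.16 ± 0.099. Pgd, which makes NADPH in the pentose phosphate pathway, stood at -0.12 ± 0.062 (adjusted p = 0.220). None of these 3 passed.

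By compartment, the calls among genes assigned to mitochondria alone all pointed upwards. The assignment came from general knowledge, and some of these proteins may also occur elsewhere in the cell. Of 7 measured mitochondrial members, 3 rose (Prdx3, Sod2 and Glrx2) and none fell, at an adjusted p under 0.05 in limma or at an unadjusted p under 0.05, with a median log2 fold change of 0.03. Of 19 measured members of the cytosol or nucleus, 3 rose (Gclm, Gss and Blvrb) and 2 fell (Txnrd1 and Txn1), with a median of -0.01. The call of Glrx2 held in 12 of 17 alternatives and that of Txn1 in 7 of 17. With the replicate block, 2 mitochondrial members passed. Among 4 members known in both compartments, Msra rose and Gpx1 and Gsr fell. Of 5 members of the endoplasmic reticulum or secreted, Gpx3 rose and Sod3 fell. The share that passed was 42.9% for the mitochondrial members, all brighter than the median gene, and 29.4% for the 17 cytosolic or nuclear members brighter than it. The matching share over all genes that bright was 37%. Counting the members of both compartments as mitochondrial would put 2 falls among the mitochondrial calls.

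**Figure D2:**
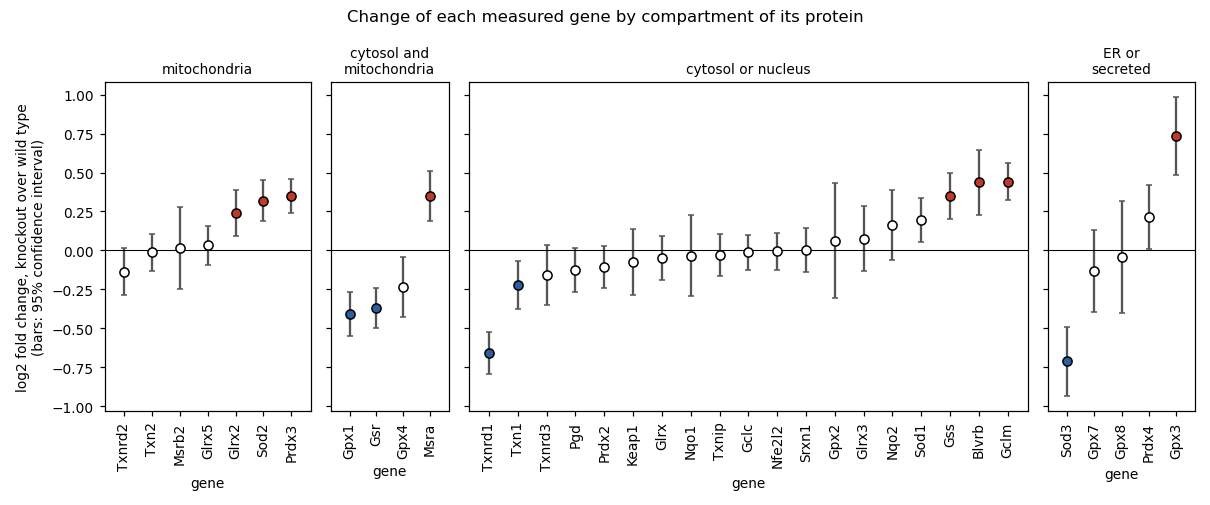
Log2 fold change of each measured gene, knockout over wild type (y axis), with its 95% confidence interval from limma, in 4 panels by the compartment of the protein (x axis, genes in order of change). Red points rose and blue points fell at an adjusted p under 0.05, and open points did not pass. The mitochondrial panel holds 3 red points and no blue one, while the cytosolic panel runs from -0.66 for Txnrd1 to 0.44 for Gclm.

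Relatives that do the same job in mitochondria and cytosol were then compared within each array. For each of 5 pairs, chosen after their values were seen, the log2 value of the cytosolic gene was subtracted from that of the mitochondrial gene, and this difference was compared between genotypes. Only its change is meaningful, since levels of different probe sets cannot be set against each other. The change towards the mitochondrial gene was 0.45 for Prdx3 against Prdx2, with knockout arrays 0.38 to 0.52 above the wild-type mean and wild-type arrays between -0.07 and 0.06. For Txnrd2 against Txnrd1 it was 0.52, for Glrx2 against Glrx 0.29 and for Txn2 against Txn1 0.21. In these 4 pairs all 4 knockout arrays lay above all 4 wild-type arrays. Each of these pairs holds a gene that had passed by itself, so the separation is a description and no p-value is given for it. The share over other pairs of genes was not counted, while single genes did not overlap in 26.1% of all cases. For Sod2 against Sod1 the change was 0.12, with 2 of 4 knockout arrays above the wild-type range. The sources of the change differed. In the peroxiredoxin and glutaredoxin pairs the mitochondrial gene passed the test and the cytosolic one did not. In the thioredoxin and thioredoxin reductase pairs the cytosolic gene passed, by falling, and the mitochondrial one did not.

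**Figure D3:**
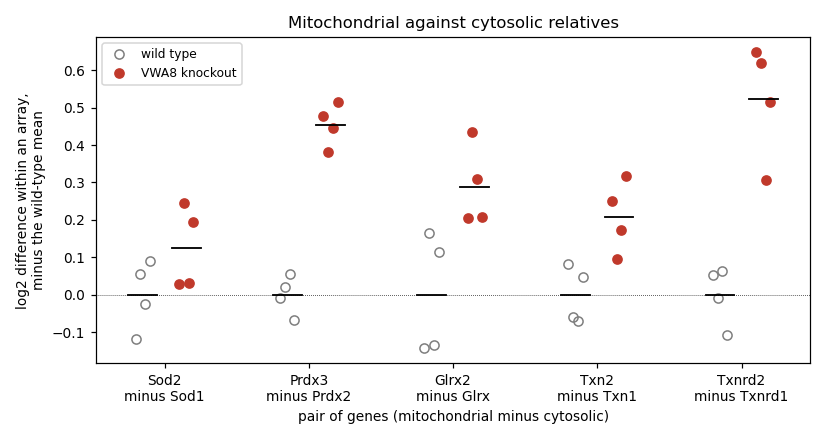
Difference between a mitochondrial gene and its cytosolic relative within each array, in log2 units from the wild-type mean (y axis), for 5 pairs (x axis). Open grey circles are wild-type arrays, red circles knockout arrays, and bars the means of 4 arrays. The knockout arrays stand clear of the wild-type arrays in 4 pairs, each holding a gene that passed by itself, and mix with them for Sod2 minus Sod1.

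Members that share a known regulator or a rare amino acid were called in both directions. Of 8 measured members taken as known NRF2 targets, Gclm rose and Gsr, Txnrd1 and Txn1 fell. Gclc, Srxn1, Nqo1 and Pgd did not pass, and the median log2 fold change of the 8 was -0.08. These 8 may not be all the targets among the members, so the counts, share and median hold for this choice only. The call of Txn1 was marginal, as given above. Of the 7 brighter than the median gene 57.1% passed, beside 37% of all genes that bright. Gclm and Txnrd1, both with the TGACNNNGC core in the windows printed above, changed in opposite directions. Of 7 selenoproteins among the members, Gpx1 and Txnrd1 fell, Gpx3 rose, and Gpx2, Gpx4, Txnrd2 and Txnrd3 did not pass (median -0.16). That is 3 of the 6 brighter than the median gene, beside 37% of all genes that bright. Gpx3 is among the 6 only through its knockout arrays, as given above. Both groups had the same selenium in the medium.

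Shifts shared with neighbours on the chromosome were common. For 7 of the 13 members that passed, the surrounding genes (the nearest 30 on either side that were brighter than the median gene) had a median log2 fold change of over 0.1 in size. The same was true of 7 of the 22 that did not pass and of 40.4% of all genes with enough neighbours. Among the first 7, the shift had the sign of the member's own change for Gclm, Gss and Gpx3, which rose. It also did for Txnrd1, Gsr and Sod3, which fell. Msra was the exception, with neighbours lower by 0.14. How often the signs match over all genes was not counted. After the neighbours' median was subtracted, 12 of the 13 still passed, Gss did not, and Sod1, Txnip and Prdx2 passed in addition. The median was taken off as a fixed number, so its own error is not part of any adjusted p given with neighbouring genes subtracted. Prdx3, Sod2 and Glrx2, the mitochondrial rises, had neighbours with median changes of 0.01, -0.004 and 0.005, and their own changes were 0.33, 0.32 and 0.24 after subtraction. The part of the surrounding genes' shift in the members' changes was not tested.

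**Figure D4:**
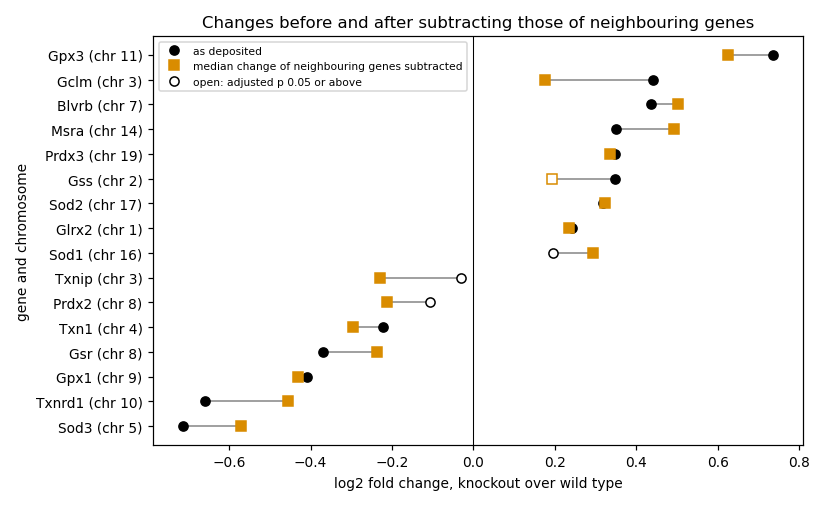
Log2 fold change of the 16 genes that passed with or without the subtraction (x axis), as deposited (circles) and with the neighbours' median change taken off (squares), with each gene's chromosome (y axis). Open symbols have an adjusted p of 0.05 or above. Gclm moves from 0.44 to 0.18 and Txnrd1 from -0.66 to -0.45, while Prdx3, Sod2 and Glrx2 hardly move.

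The wider pathway was examined through 5 further lists of genes outside the members, 98 of which were measured. Of these, 32 rose and 14 fell, or 46.9%, where 20.9% of all genes passed. Of the 91 brighter than the median gene 49.5% passed, beside 37% of all genes that bright. Some genes stand in more than 1 list and were counted once. List by list, the share was 47.6% for glutathione supply, 50% for NRF2 regulation and targets and 50% for NADPH supply. It was 40% for selenoproteins and 42.9% for other peroxide and disulfide enzymes. In the list of glutathione supply, transport and breakdown, 9 of 21 measured genes rose and 1 fell, with a median of 0.17. The fall, named after its value was seen, was in the glutamine carrier Slc1a5 (-0.39 ± 0.078), whose call ended with neighbouring genes subtracted (-0.23, adjusted p = 0.0686) and with all its probe sets averaged (-0.07, adjusted p = 0.793). The largest rises were in the enzymes that convert homocysteine to cysteine, the precursor of glutathione. Cth, cystathionine gamma-lyase, rose 2.53-fold (1.34 ± 0.057, or 1.09 with neighbouring genes subtracted) and Cbs, cystathionine beta-synthase, rose 2.32-fold (1.22 ± 0.061). Lancl1, which binds glutathione, rose by 0.57 ± 0.058 (0.29 with neighbouring genes subtracted) and Glo1, the glutathione-dependent glyoxalase, by 0.45 ± 0.052.

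Genes of NRF2 regulation and its other targets went both ways, 5 of 22 measured higher and 6 lower, with a median of -0.03. The glutathione transferases Gsta4 and Gstm1 rose by 0.74 ± 0.060 and 0.49 ± 0.073 (Gstm1 by 0.25 with neighbouring genes subtracted). The exporter Abcc4 fell (-0.80 ± 0.067, or -0.64 with neighbouring genes subtracted), as did Hmox1, heme oxygenase (-0.44 ± 0.062). The other 4 falls, named after their values were seen, were Me1, malic enzyme, at -0.40 ± 0.062, Bach1, a repressor at NRF2 sites, at -0.44 ± 0.078, and the small MAF proteins Mafk at -0.53 ± 0.093 and Maff at -0.32 ± 0.072. Mafk stood at -0.40 with neighbouring genes subtracted. The third small MAF, Mafg, missed the threshold at 0.21 ± 0.079 (adjusted p = 0.102), as did Nfe2l1, a relative of NRF2, at -0.04 ± 0.057.

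In the list of NADPH supply, 6 of 18 measured genes rose and 3 fell, with a median of 0.005. Idh1, the cytosolic and peroxisomal isocitrate dehydrogenase, rose 2.05-fold (1.04 ± 0.048, adjusted p = 2.27e-06) and Nadk2, the mitochondrial NAD kinase, 1.68-fold (0.75 ± 0.074). With neighbouring genes subtracted, the change of Idh1 was 0.75. The folate enzymes Aldh1l1 of the cytosol and Aldh1l2 of mitochondria rose by 0.70 ± 0.075 and 0.81 ± 0.088 (Aldh1l2 by 1.01 with neighbouring genes subtracted). The falls, named after their values were seen, were Me1, Mthfd2l and Idh2, at -0.40, -0.38 and -0.24. With neighbouring genes subtracted, Mthfd2l stood at -0.23 and Idh2 at -0.15, the latter no longer past the threshold (adjusted p = 0.152). The call of Idh2 held in 9 of 17 alternatives.

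Other selenoproteins and their synthesis genes rose in 6 of 20 measured cases and fell in 2, with a median of 0.02. That is 40%, near the 37% of all genes brighter than the median gene. Selenow, a small thioredoxin-like selenoprotein, fell (-0.83 ± 0.078), and so did Selenoh (-0.44 ± 0.115), named after its value was seen. With neighbouring genes subtracted, Selenow stood at -0.72 and Selenoh at -0.58. The call of Selenoh held in 12 of 17 alternatives. Msrb1, a selenoprotein that repairs methionine, rose by 0.51 ± 0.053. Sephs2, which makes the selenium donor for selenocysteine, rose by 0.50 ± 0.056 (0.63 with neighbouring genes subtracted). Scly, which recycles selenium from selenocysteine, rose by 0.48 ± 0.066 (0.30 with neighbouring genes subtracted). Other peroxide, superoxide and disulfide enzymes rose in 6 of 21 cases and fell in 3, with a median of 0.10. That is 42.9%, also near the share of genes that bright. Xdh, xanthine dehydrogenase, and Nox4, a hydrogen peroxide producing oxidase, rose by 0.77 ± 0.058 and 0.67 ± 0.058. Tmx2, a thioredoxin-like membrane protein, rose by 0.54 ± 0.056 (0.41 with neighbouring genes subtracted), while Sesn3, a sestrin, fell (-0.57 ± 0.056). Among the genes of these 5 lists named above as risen or fallen, the highest adjusted p in limma was 0.0277, that of Idh2. The counts of rises also include unnamed genes closer to the threshold, such as Ephx1 (adjusted p = 0.0483) and Tmx4 (0.0479).

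**Figure D5:**
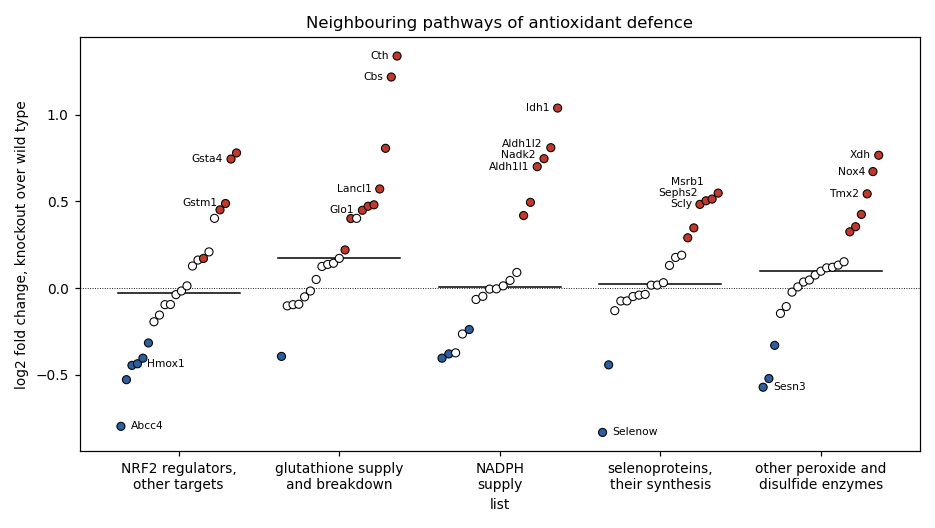
Log2 fold change, knockout over wild type (y axis), of the measured genes of 5 neighbouring lists (x axis), each list in order of change with its median as a bar. Red points rose and blue points fell at an adjusted p under 0.05, open points did not pass, and the 4 smallest adjusted p of each list are named. Cth, Cbs and Idh1 stand highest, and Selenow and Abcc4 lowest.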

How the data were processed

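Total RNA of 4 wild-type and 4 VWA8-null AML12 cultures was hybridised to Affymetrix mouse arrays, per the labels' protocols. The deposited values are log2 intensities per probe set, as read from their range, with array medians between 4.27 and 4.33. How the authors corrected background, normalized and summarised them is not stated in the labels, and nothing was renormalized. Genes were named from the platform annotation, in which 23521 of 41345 probe sets had 1 symbol. Chromosomes came from the RefSeq gene table of GRCm38.p6.

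The test was limma 3.58.1 in R 4.3.3, with no term beside genotype and with Benjamini-Hochberg adjustment over 22180 genes, and the fit was tested on simulated data. Confidence intervals cover 95%, and the 4 arrays per group limit precision. The members, lists and tests were chosen with earlier results of these data known. Array values are printed for the 16 members with the smallest adjusted p and for Nfe2l2, Keap1, Gclc, Nqo1, Txn2 and Txnrd2 among others named whatever their values, and up to 4 genes with the smallest p are named per pathway list, beside some named after their values were seen. Compartments were assigned from general knowledge. The 17 alternatives left out each array (8), dropped the dimmest 25% or 50% of probe sets, added a replicate block, used median centring or quantile normalization, weighted the arrays, let variances follow intensity robustly, averaged all probe sets of a gene, or subtracted the surrounding genes' median change from each gene. Replicate numbers were not taken as pairs in the main fit. Deviations of same-numbered arrays correlated with r between -0.002 and 0.059, and those of differently numbered arrays between -0.061 and 0.041. Such low values cannot exclude pairing, and the replicate block is among the alternatives. Figures used matplotlib 3.10.9 (Python 3.11.15).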

Additional observations from a re-analysis of the deposited data

Results flagged for a closer look

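Among the 70 sets of 4 arrays examined (35 genes in 2 groups), 3 had an array whose gap to its nearest neighbour took most of the group's range. Chance alone flags about 1 set in 20. Sod2 in knockout replicate 2 read 9.76, where the other knockout arrays lay between 9.67 and 9.68, and it stood in the direction of the difference from wild type. Gpx4 in knockout replicate 3 read 6.52 above a next value of 6.45. Nfe2l2 in knockout replicate 4 read 10.18 above a next value of 10.13. All 3 ranges were narrow, and Sod2 passed the test without any single array.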

How the results depend on the processing

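Of the 13 members that passed, 10 passed under every one of the 17 alternatives, the exceptions being Gss, Glrx2 and Txn1. The replicate block took the genes that passed from 4626 to 3717 and the members from 13 to 11, ending the calls of Glrx2 (adjusted p = 0.0571) and Txn1 (0.0696). Median centring also ended the call of Txn1 (0.0936). Over all alternatives between 11 and 15 members passed. The mitochondrial median of 0.03 was 0.097 when probe sets were averaged per gene and 0.007 to 0.103 when single arrays were left out, the highest without knockout replicate 2. The cytosolic median of -0.01 was 0.009 with median centring and -0.033 to -0.002 when single arrays were left out, the lowest without knockout replicate 2. Counting members of both compartments on each side put the changed members at 6 mitochondrial and 8 cytosolic. The change of Prdx3 against Prdx2 was 0.547 with neighbouring genes subtracted. The sign of 9 members that did not pass turned under some alternatives, and the cause was not tested. With median centring Nfe2l2 stood at 0.016, Gclc at 0.009 and Txn2 at 0.007. Quantile normalization gave 0.001 for Gclc and -0.007 for Srxn1, and the mean of its probe sets gave 0.022 for Keap1. Subtracting neighbouring genes gave 0.02 for Gclc, 0.024 for Gpx8, -0.174 for Srxn1 and -0.112 for Msrb2. Leaving out single arrays gave ranges of -0.019 to 0.017 for Nfe2l2, -0.019 to 0.001 for Gclc, -0.057 to 0.146 for Gpx2, -0.145 to 0.079 for Gpx8, -0.036 to 0.027 for Srxn1, -0.028 to 0.002 for Txn2, -0.115 to 0.039 for Nqo1 and -0.07 to 0.103 for Msrb2. Dropping the dimmest probe sets removed Gpx2 at 25% and also Gpx7, Gpx8 and Nqo1 at 50%, so these had no value there. Dim signals limit what can be said of these 4 genes.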
